A study of Rattus norvegicus with 7 samples.

Results

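The lipoxygenases and the enzymes of leukotriene synthesis were followed in the rat meibomian gland, the large sebaceous gland of the eyelid whose oily secretion covers the tear film. The genes were chosen by symbol: the lipoxygenases Alox5, Alox12, Alox12b, Alox12e, Alox15 and Aloxe3, with Alox5ap, Ltc4s and Lta4h of the leukotriene route. All 9 were present among the 17246 genes read from the count table, and all 9 passed the filter on low counts. RNA was sequenced from glands of wild-type female Sprague-Dawley rats aged 3 months, 4 labelled untreated (Control) and 3 labelled UVB. Per the labels, UVB meant daily exposure of the shaved upper lids to 300 mJ/cm2 over 5 min, repeated for 5 days, before the glands were dissected and frozen. The labels give the shaving and exposure protocol for every sample, so whether controls were shaved is not known, and the interval from the last exposure to dissection is not given. The question put to the data is how the transcripts of these enzymes stand after exposure. Letters tell the libraries of a group apart (Control a, b, c and d, then UVB a, b and c), since the columns name only the group; a shared letter pairs nothing.

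Lipoxygenases are iron enzymes that insert oxygen into polyunsaturated fatty acids and give hydroperoxides. In epidermis, the 12R-lipoxygenase encoded by Alox12b and the isomerase encoded by Aloxe3 act one after the other on the linoleate of acylceramides, a step needed for the water barrier. In leukocytes, 5-lipoxygenase works with its activating protein to make leukotriene A4, which Lta4h turns into the neutrophil attractant leukotriene B4 and Ltc4s into the cysteinyl leukotriene C4. Alox12 encodes the 12S-lipoxygenase known from platelets, Alox15 the 12/15-lipoxygenase of macrophages and other leukocytes, and Alox12e an epidermal-type 12-lipoxygenase of rodents whose human counterpart is a pseudogene.

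Library totals ran from 20680237 to 28784941 counts. Transcripts of the gland's lipid-forming cells were abundant in every library: the fatty acid desaturase gene Scd measured 27692 ± 2517 TPM (SD, n = 4) and the wax alcohol acyltransferase gene Awat2 11610 ± 597 TPM (SD, n = 4) in Control. The samples also held keratinising epithelium, with Krtdap at 1662 ± 132 TPM and Krt1 at 1471 ± 148 TPM, and skeletal muscle, with Acta1 at 768 ± 121 TPM and Mylpf at 521 ± 87.5 TPM (SD, n = 4, Control). TPM corrects for transcript length and is used here to compare genes. CPM, counts scaled to library size with TMM factors, is used to compare libraries. Nothing in the labels says whether libraries were made in batches. Because the samples are bulk tissue, fewer cells of a type and less RNA per cell cannot be told apart.

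A single member of the set passed the threshold. Alox12e fell 4.06-fold after UVB, and the other 8 genes did not pass the threshold, an adjusted p under 0.05 in edgeR's quasi-likelihood test over 13709 genes. That is 11.1% of the members, near the 13.0% of all tested genes that passed in either direction and the 6.74% that passed with lower values. DESeq2 and limma-voom also called Alox12e alone, where they called 17.5% and 13.2% of all genes they tested. Groups did not overlap for 2 members, Alox12e and Lta4h, which held for 26.6% of all tested genes. The median log2 fold change was 0.11 over the 9 members and -0.0058 over all tested genes, and 6 of the 9 values were above 0. edgeR, DESeq2 and limma-voom called 0 members higher; at an unadjusted p under 0.05, edgeR counted 3 members, with Lta4h higher and Alox12e and Aloxe3 lower, where 29.5% of all tested genes reached that level.

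**Figure D1:**
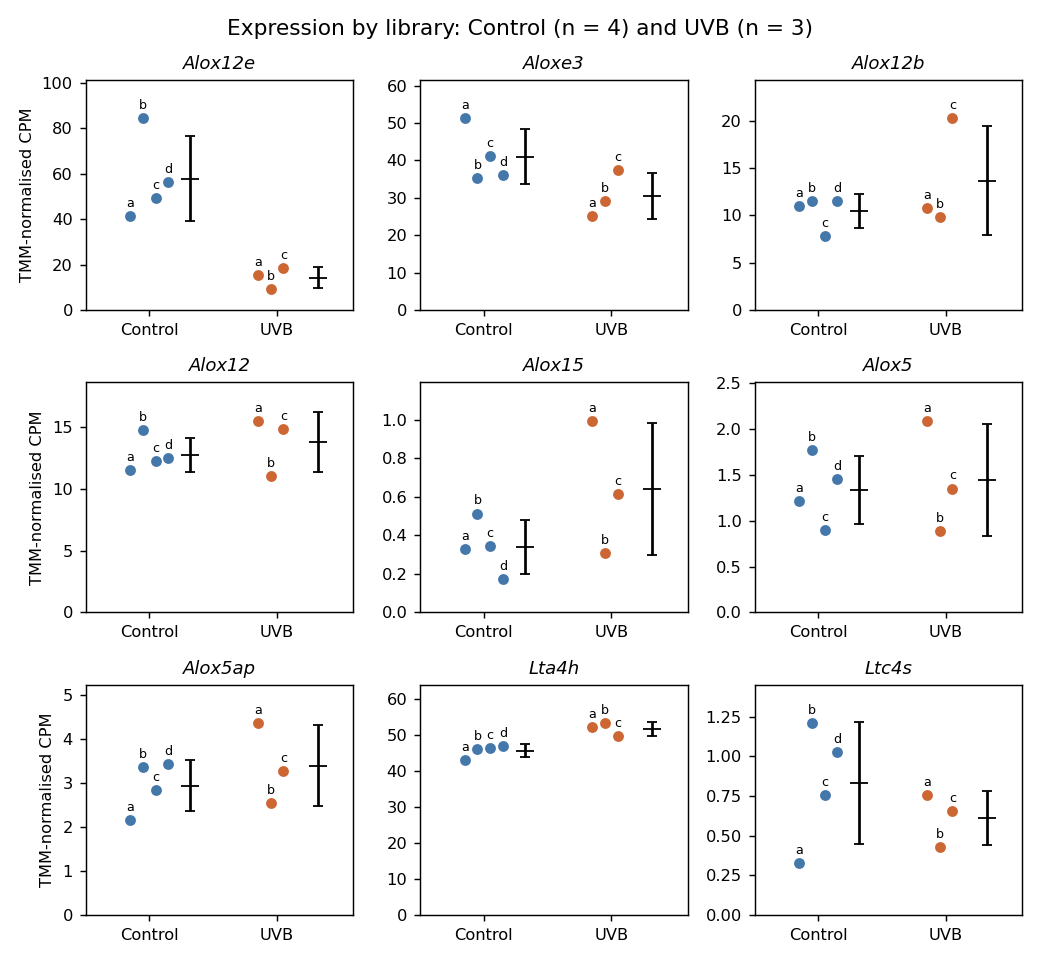
TMM-normalised CPM of each of the 9 genes (y axis, from 0, its own scale in each panel) in the 4 Control and 3 UVB libraries (x axis); letters name the libraries, and black bars show the mean with the SD. The Alox12e points of the UVB group lie between 9.10 and 18.3 CPM, below the 41.2 to 84.4 CPM of the controls, and the groups are also apart for Lta4h.

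Alox12e was the lipoxygenase that passed the threshold. It measured 41.2, 84.4, 49.2 and 56.2 CPM in Control a to d and 15.3, 9.10 and 18.3 CPM in UVB a to c. Every UVB library was below every control, and the lowest control was Control a. The group means were 57.8 ± 18.8 CPM (SD, n = 4) and 14.2 ± 4.69 CPM (SD, n = 3), from 235 to 1809 counts in a library. The log2 fold change was -2.02 (SE 0.32, 95% interval -2.76 to -1.28, edgeR adjusted p = 0.0104), and 99.4% of the tested genes changed by less in size. The call held in each of 18 other fits, with log2 fold changes from -2.25 to -1.77 and adjusted p-values up to 0.0327. All its counts were whole numbers, and no other gene overlaps Alox12e in the RefSeq annotation of assembly GRCr8.

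In that annotation Alox12, Alox12e and Alox15 are consecutive protein-coding genes, and the next is Pelp1. None of these neighbours passed the threshold: the log2 fold changes were 0.11 for Alox12 (edgeR adjusted p = 0.636), 0.89 for Alox15 (0.253) and 0.12 for Pelp1 (0.261). The bases before the annotated starts of the adjacent genes Alox12e and Alox12 are printed to show the region upstream of the member that fell beside that of its neighbour. They are the 250 bases before each start in RefSeq's GRCr8 table, written in the direction of the gene, with capitals for the GC box GGGCGG on either strand.
Alox12e, chr10:55540510-55540759, minus strand: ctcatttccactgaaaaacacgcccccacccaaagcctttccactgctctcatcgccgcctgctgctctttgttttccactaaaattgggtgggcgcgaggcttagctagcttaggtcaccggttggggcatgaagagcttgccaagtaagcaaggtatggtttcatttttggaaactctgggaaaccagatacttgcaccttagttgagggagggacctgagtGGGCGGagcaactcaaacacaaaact
Alox12, chr10:55469200-55469449, minus strand: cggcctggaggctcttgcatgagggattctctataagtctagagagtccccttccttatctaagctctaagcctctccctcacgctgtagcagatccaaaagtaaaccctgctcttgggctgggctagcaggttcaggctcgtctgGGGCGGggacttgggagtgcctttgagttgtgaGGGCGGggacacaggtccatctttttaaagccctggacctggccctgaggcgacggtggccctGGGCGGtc
The Alox12e stretch held 1 GC box at a GC content of 50.8%, and the Alox12 stretch held 3 at 58.4%. Of the 7 members found in that table, 6 held a GC box, which 30.5% of 33469 promoters of the same length hold. A TATAAA box (12.9% of promoters) or a TGANTCA site, the sequence bound by AP-1 (6.34%), was not in any of the 7 windows on either strand. None of the 3 motifs contains another, and a match or its absence describes only these windows.

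The genes whose profile over the 7 libraries came nearest to that of Alox12e were Mat1a, Skint8 and Bbox1. Nearness was the root mean square distance between log2 CPM values centred on each gene's mean, over 11966 genes with a mean count of at least 50. The distances were 0.17 for Mat1a, 0.27 for Skint8 and 0.28 for Bbox1 on the log2 scale, against a median of 1.09 over all genes compared. A gene with a flat profile would lie at 1.08, the root mean square spread of Alox12e about its own mean. The median thus reflects the variation of Alox12e itself and does not show how unusual the nearest genes are. Mat1a encodes a methionine adenosyltransferase, Skint8 a member of an immunoglobulin-like family expressed in skin and thymus, and Bbox1 the last enzyme of carnitine synthesis. Each had its highest value in Control b and its lowest in UVB b, as Alox12e did. Their log2 fold changes were -1.82 for Mat1a (SE 0.34, edgeR adjusted p = 0.0116), -1.63 for Skint8 (SE 0.37, adjusted p = 0.0258) and -1.71 for Bbox1 (SE 0.36, adjusted p = 0.0182). The call of Skint8 was lost without Control b (adjusted p = 0.0575), Control c (0.0584), Control d (0.0644) or UVB a (0.0664), and that of Bbox1 without UVB a (0.0566). A tRNA gene overlaps Mat1a and an uncharacterised locus Bbox1 in GRCr8. These genes were picked for their likeness, so their direction adds nothing to that of Alox12e.

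**Figure D2:**
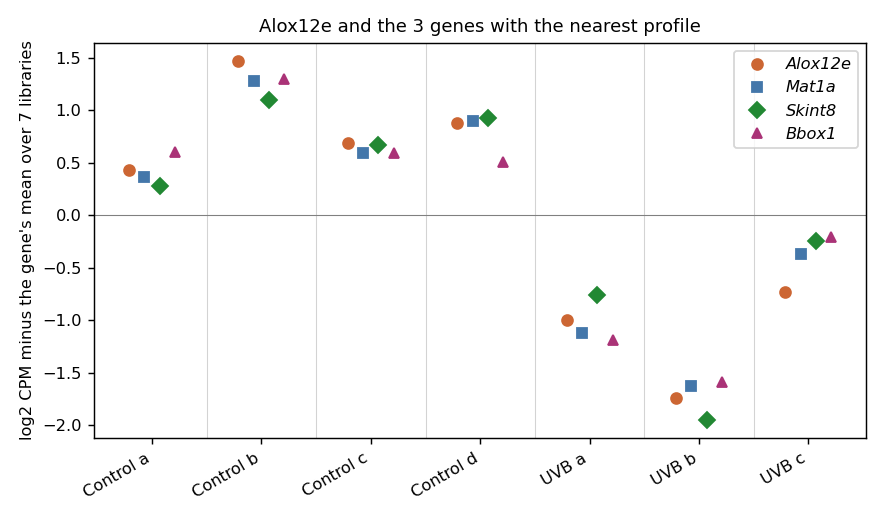
Centred log2 CPM (y axis: log2 CPM minus the gene's mean over the 7 libraries) of Alox12e, Mat1a, Skint8 and Bbox1 in each library (x axis). All 4 genes are above their mean in every control and below it in every UVB library, and UVB b holds the lowest value of each (-1.74 for Alox12e).

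Markers of granular and cornified epidermis, the layers where epidermal lipoxygenases are known to act, moved unevenly. Of 15 listed genes tested, 5 were called lower and 1 higher, with a median log2 fold change of -0.37 (-0.095 without UVB b, -0.58 without UVB c). Of all tested genes, 6.74% were called lower and 6.30% higher. Those lower were the keratin genes Krt77 (-5.90, edgeR adjusted p = 0.00348) and Krt2 (-1.21, 0.0231), the envelope gene Lce1m (-1.98, 0.0469), the protease gene Klk5 (-1.27, 0.0461) and Sbsn (-0.53, 0.0107). The envelope gene Cnfn was higher (1.37, adjusted p = 0.00107). Krt77 averaged 43.9 ± 27.5 CPM (SD, n = 4) in Control and 0.746 ± 0.289 CPM (SD, n = 3) in UVB, a larger fold than that of Alox12e. Krt77 and Sbsn passed in all 7 fits without 1 library, Krt2 in 3, Klk5 in 2 and Lce1m in 0. The genes called lower numbered 3 without Control a, Control b or UVB a and 2 without Control c or Control d; DESeq2 called 3 higher. The summed TPM of these markers was 5182 to 6197 in Control and 5355 to 8248 after UVB, and the groups overlapped. This sum is carried by Krt1, Krtdap and Krt10 (1471, 1662 and 877 TPM in Control). The 5 genes called lower, and Ivl, lay below every control in every UVB library, as did 13.8% of all tested genes. Krtdap and Cnfn lay above every control in every UVB library, as did 12.8% of all tested genes. None of the markers was at the floor of 3 counts in every library. Of the most abundant, Krt1 had a log2 fold change of 0.39 (edgeR adjusted p = 0.11) and Krtdap 0.37 (adjusted p = 0.0632). The part of these cells in the fall of Alox12e was not tested. Markers of meibocytes gave 4 of 12 called lower, with a median log2 fold change of -0.14 (-0.07 without UVB c), and 4 of the 12 values were above 0. Their summed TPM was 47072 to 56913 in Control and 43103 to 49814 after UVB, with Scd the largest part. Scd did not pass (-0.04, edgeR adjusted p = 0.879), while Awat2 was called lower (-0.66, 0.00453). Awat2, Plin2 (-0.45) and Cidea (-0.50) passed in all 7 fits without 1 library, and Awat1 (-0.33) in 1. In such fits, 2 meibocyte markers were called higher without Control a and 1 without UVB a. Basal epithelial markers gave 3 of 6 called higher (1 without Control c or UVB c), with sums of 8109 to 10332 and 10579 to 11685 TPM. The most abundant of them were Krt14, called higher (0.47, edgeR adjusted p = 0.0173), and Krt5, which did not pass (-0.021, 0.922). Skeletal muscle markers gave 1 of 7 called lower, which was lost without any one of the controls or UVB b, with sums of 2374 to 3327 and 1576 to 2902 TPM.

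Aloxe3 and Alox12b, the pair of the epidermal barrier, did not pass. Aloxe3 measured 51.3, 35.3, 41.2 and 36.1 CPM in Control a to d and 25.0, 29.1 and 37.3 CPM in UVB a to c. UVB a and b were below every control, and UVB c lay among them. The log2 fold change was -0.43 (SE 0.17, 95% interval -0.81 to -0.044, unadjusted p = 0.0329, edgeR adjusted p = 0.131), and the adjusted p over 18 other fits ran from 0.0566 without UVB c to 0.298 without UVB a.

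Alox12b measured 11.0, 11.5, 7.80 and 11.5 CPM in Control a to d and 10.8, 9.87 and 20.3 CPM in UVB a to c. A single library, UVB c, was high, and UVB a and b lay within the range of the controls. The log2 fold change of 0.39 (SE 0.26, 95% interval -0.20 to 0.99, edgeR adjusted p = 0.351) became -0.01 without UVB c. UVB c also had the highest summed TPM of granular and cornified markers, 8248 against 5355 in UVB b and 6249 in UVB a; the part of this in the Alox12b value was not tested. An uncharacterised locus overlaps Alox12b in GRCr8, and whether counting used strand is not given in the sources used here, so its count is uncertain.

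Because the enzymes work in sequence, the ratio of Aloxe3 to Alox12b was taken within each library, where scaling cancels. Its log2 value in TPM was 2.07, 1.46, 2.24 and 1.49 in Control a to d and 1.05, 1.40 and 0.72 in UVB a to c. The groups did not overlap, with a mean difference of -0.76 (1.81 ± 0.40, SD, n = 4, against 1.05 ± 0.34, SD, n = 3). The exact two-sided permutation p was 0.0571, and 0.171 after adjustment over the 3 ratios examined. The 35 splits allow 0.0286 at the least, or 0.0857 adjusted where 1 ratio alone reaches it, so a difference in 1 ratio could not pass in this design.

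The other genes of the acylceramide route gave 2 of 14 called, both higher, with a median log2 fold change of 0.25 (0.075 without UVB c) and 10 of 14 values above 0; over all tested genes 6.30% were called higher. DESeq2 called 4 higher, adding Elovl1 and Ugcg, which elongate fatty acids and make glucosylceramide. Slc27a4, which encodes a fatty acid transporter and acyl-CoA synthetase of the epidermal barrier, measured 221, 206, 202 and 205 CPM in Control a to d and 274, 318 and 317 CPM in UVB a to c. It rose by 0.54 on the log2 scale (edgeR adjusted p = 0.00348, SE 0.071), with all 3 UVB libraries above all controls, and was called in all 18 other fits. Tgm1, which encodes a transglutaminase that crosslinks the cornified envelope, rose by 0.62 on the log2 scale (SE 0.15, adjusted p = 0.0318), averaging 45.8 ± 4.50 CPM (SD, n = 4) in Control and 70.2 ± 16.4 CPM (SD, n = 3) in UVB. Tgm1 kept its call only without UVB b among the fits lacking 1 library, and its adjusted p rose to 0.0668, 0.0643, 0.0826 and 0.0539 without Control a to d, 0.0759 without UVB a and 0.0633 without UVB c.

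Alox12 and Alox15 did not pass the threshold, and their groups overlapped. Alox12 measured 11.5, 14.7, 12.2 and 12.5 CPM in Control a to d and 15.5, 11.0 and 14.8 CPM in UVB a to c, with both the lowest and the highest value in the UVB group. Its log2 fold change was 0.11 (SE 0.14, 95% interval -0.20 to 0.43, edgeR adjusted p = 0.636). Beside it, platelet markers gave 1 of 3 tested genes called higher, where 6.30% of all tested genes were. That gene was Pf4, which macrophages also express. The other tested genes, Itga2b and Gp1ba, had log2 fold changes of -0.42 (edgeR adjusted p = 0.356) and -0.73 (adjusted p = 0.199), and the median of the list was -0.42; Ppbp and Gp9 were at or under 3 counts in every library. The summed TPM of the platelet list was 5.08 to 12.4 in Control and 17.0 to 32.4 after UVB, of which Pf4 made up most (25.9 TPM on average in UVB). The part of platelets in the Alox12 level was not tested.

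Alox15 was scarce, with 7, 11, 10 and 4 counts in Control a to d and 21, 8 and 16 counts in UVB a to c. UVB a and c were above all controls, and UVB b was among them. The log2 fold change of 0.89 had a 95% interval of -0.20 to 1.98 (SE 0.48, edgeR adjusted p = 0.253), so neither no change nor a change of several fold is resolved at this depth. The type B 15-lipoxygenase gene Alox15b, which is no member of the set and lies next to Alox12b in GRCr8, had 2 to 12 counts in a library and did not pass the low-count filter.

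The 5-lipoxygenase pair was low and overlapped between groups. Alox5 measured 1.21, 1.77, 0.897 and 1.45 CPM in Control a to d and 2.09, 0.890 and 1.35 CPM in UVB a to c, from 23 to 44 counts. Its log2 fold change was 0.11 (SE 0.34, 95% interval -0.66 to 0.88, edgeR adjusted p = 0.866), and its sign turned without Control c (-0.052) or UVB a (-0.24). Alox5ap, the membrane protein that presents arachidonate to 5-lipoxygenase, measured 2.15, 3.36, 2.83 and 3.42 CPM in Control a to d and 4.36, 2.55 and 3.27 CPM in UVB a to c. UVB a was above every control and UVB b below all but Control a. The log2 fold change of 0.20 (SE 0.24, 95% interval -0.33 to 0.74, adjusted p = 0.617) was -0.012 without UVB a. The log2 TPM ratio of Alox5ap to Alox5 was 2.82 ± 0.37 (SD, n = 4) in Control and 2.96 ± 0.22 (SD, n = 3) in UVB, with an exact permutation p of 0.60 (0.686 adjusted over 3 ratios).

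Within the UVB group Alox5, Alox5ap, Alox15 and Alox12 shared an order, with UVB a highest and UVB b lowest for each. UVB b was also the lowest UVB library for Alox12e, Alox12b and Ltc4s, but not for Aloxe3 or Lta4h. A low value in UVB b is thus not particular to the genes that shared the order. Markers of leukocytes in general also had their lowest UVB value in UVB b, a summed TPM of 33.6 against 49.8 in UVB a and 58.1 in UVB c. Among the controls, Control b had the highest leukocyte sum, 57.0 TPM against 28.7 to 36.6, and the highest Alox5, Alox12 and Alox15. Alox12e and Ltc4s were also highest in Control b. Alox5ap was highest in Control d, at 3.42 CPM against 3.36 CPM in Control b. Of the 5 general leukocyte markers, led by Laptm5 and Coro1a, edgeR, DESeq2 and limma-voom each called 0, and 0 reached an unadjusted p under 0.05 in edgeR. Over all tested genes, edgeR called 13.0%. The part of leukocyte number in the 5-lipoxygenase values was not tested.

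Some markers of single leukocyte types were called higher and others of the same lists were not, where 6.30% of all tested genes were called higher. Macrophage markers gave 4 of 10 called higher, Cd163, Mrc1, C1qb and C1qc, with a median log2 fold change of 0.71; Cd68 (-0.41, edgeR adjusted p = 0.186), Lyz2 (-0.77, 0.359) and Csf1r (-0.0093, 0.985) did not pass. Mast cell markers gave 3 of 8, Hdc, Tpsab1 and Cpa3 (median 0.76; 0.55 without Control c). The most abundant of that list in Control, Kit (0.37, edgeR adjusted p = 0.0693) and Cma1 (0.67, 0.123), did not pass. Neutrophil markers gave 3 of 4, Csf3r, Mmp9 and S100a9 (median 1.62), but the median was 0.29 on the log2(TPM + 0.1) scale over genes with a mean of at least 1 TPM. Csf3r and Mmp9 fall under that mean, so the lower median rests on S100a8 and S100a9 alone. T and B cell markers gave 2 of 5, Cd8a and Cd2, with a median of 0.49. That median was 0.17 without Control c, 0.79 without Control b and 0.056 on that TPM scale, where Cd8a drops out. Cd3e (-0.55, edgeR adjusted p = 0.329) and Cd3g (-0.27, 0.751) did not pass. Macrophage calls numbered 2 without Control a, c or d or UVB a or c, and lymphocyte calls 1 without Control a, c or d or any UVB library. Neutrophil calls numbered 2 in every fit without 1 library but that without UVB a, since S100a9 passed in 1 of these 7 fits. The fourth neutrophil marker tested, S100a8, did not pass (0.14, edgeR adjusted p = 0.244). Csf3r and Mmp9 were scarce in Control, at 0.120 and 0.173 TPM on average. Summed TPM was 182 to 509 in Control and 212 to 359 after UVB for macrophages, 23.7 to 32.7 and 42.2 to 52.6 for mast cells, 1580 to 1777 and 1842 to 2116 for neutrophils, and 6.38 to 9.28 and 6.88 to 12.9 for T and B cells. The neutrophil sum rests on S100a8 and S100a9, which keratinocytes also express, at 1354 ± 76.2 and 336 ± 24.3 TPM (SD, n = 4) in Control. The granule genes Elane, Ngp, Camp and Ltf were at or under 3 counts in every library, as were Mcpt1 of the mast cell list, Cd79b and Ms4a1 of the lymphocyte list and Ccr3 of eosinophils.

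Of the members that act on leukotriene A4, Lta4h and Ltc4s, Lta4h had the higher TPM in every library. Mgst2, which is no member of the set and can also make leukotriene C4, had a higher mean TPM than Lta4h in both groups. Lta4h measured 43.0, 46.3, 46.5 and 47.0 CPM in Control a to d and 52.2, 53.4 and 49.7 CPM in UVB a to c. All UVB libraries were above all controls, which 12.8% of tested genes shared in that direction. The log2 fold change was small, 0.18 (SE 0.061, 95% interval 0.043 to 0.32, unadjusted p = 0.0152, edgeR adjusted p = 0.0826), and it did not pass in any of 18 other fits (adjusted p 0.0777 to 0.197). Uncharacterised loci overlap Lta4h in GRCr8, so part of its count is uncertain.

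Ltc4s had 7, 26, 22 and 24 counts in Control a to d and 16, 11 and 17 counts in UVB a to c. Control a was the lowest library and the other controls had more counts than any UVB library, although the libraries differ in depth. Its log2 fold change in counts was -0.45 (SE 0.44, 95% interval -1.42 to 0.53, edgeR adjusted p = 0.531). In TPM the group means were 2.51 ± 0.953 (SD, n = 4) and 2.44 ± 0.434 (SD, n = 3), and the fold change on the log2(TPM + 0.1) scale was 0.01. The counts behind 1 TPM of Ltc4s, relative to other genes, varied 2.33-fold between libraries, where those of the other 8 members varied by at most 1.02-fold. In GRCr8 Ltc4s overlaps Mgat4b, a glycosyltransferase gene, and strand use is not stated, so both its level and its change are uncertain. The log2 TPM ratio of Ltc4s to Lta4h was -3.99 ± 0.49 (SD, n = 4) in Control and -4.17 ± 0.30 (SD, n = 3) in UVB, with an exact permutation p of 0.686 before and after adjustment over 3 ratios.

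**Figure D3:**
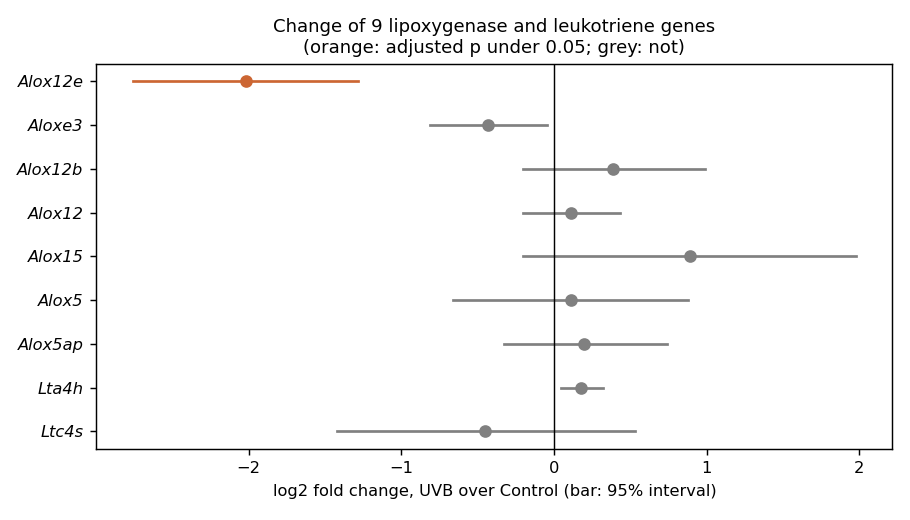
Log2 fold change of UVB over Control (x axis) for the 9 genes (y axis) from edgeR; points are estimates, bars 95% intervals, and orange marks an adjusted p under 0.05. Alox12e, at -2.02, is the orange point; the intervals of Aloxe3 and Lta4h leave 0 by a small margin before adjustment, and Alox15 and Ltc4s have the widest bars after their low counts.

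Per length of transcript, Alox12e and Lta4h were the most abundant of the 9 in Control, at 39.8 ± 12.8 and 38.1 ± 1.83 TPM (SD, n = 4), and their ranges overlapped. Alox12e was above Lta4h only in Control b. Aloxe3 followed at 27.4 ± 4.84 TPM; its range lay below that of Lta4h and above that of the next gene, but overlapped that of Alox12e, which it exceeded in Control a (34.0 against 28.0 TPM). Alox12b (7.80 ± 1.24), Alox12 (7.55 ± 0.792) and Alox5ap (6.07 ± 1.22) overlapped in turn. Ltc4s (2.51 ± 0.953), Alox5 (0.867 ± 0.234) and Alox15 (0.263 ± 0.111 TPM, SD, n = 4) stood below them with ranges apart from each other. Among all genes, 80.2% had a lower mean Control TPM than Alox12e, 73.1% than Aloxe3, 25.8% than Alox5 and 18.4% than Alox15.

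After UVB the order was Lta4h (43.3 ± 1.50 TPM), Aloxe3 (20.5 ± 4.12), Alox12b (10.3 ± 4.34), Alox12e (9.80 ± 3.32), Alox12 (8.21 ± 1.57) and Alox5ap (7.06 ± 2.02 TPM, SD, n = 3). Of these, Alox12b, Alox12e and Alox12 each overlapped the next. Ltc4s (2.44 ± 0.434), Alox5 (0.943 ± 0.409) and Alox15 (0.503 ± 0.276 TPM, SD, n = 3) came last, and the last 2 overlapped.

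The make-up of the lipoxygenase transcripts differed with the level of Alox12e. Of the summed TPM of the 6 lipoxygenases, Alox12e made up 36.0%, 57.7%, 44.9% and 48.5% in Control a to d and 22.4%, 15.4% and 20.0% in UVB a to c. Aloxe3 had the largest share in all 3 UVB libraries, 36.0% to 48.2%, and in Control a, where it held 43.6%. The sum itself was 83.7 ± 11.0 TPM (SD, n = 4) in Control and 50.2 ± 11.9 TPM (SD, n = 3) after UVB. Without Alox12e it was 43.9 ± 4.05 and 40.4 ± 8.93 TPM, with UVB c (50.5 TPM) above all controls and UVB a (36.8) and b (33.8) below them. The shares add up to a whole, so a lower share of one gene raises those of the rest.

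**Figure D4:**
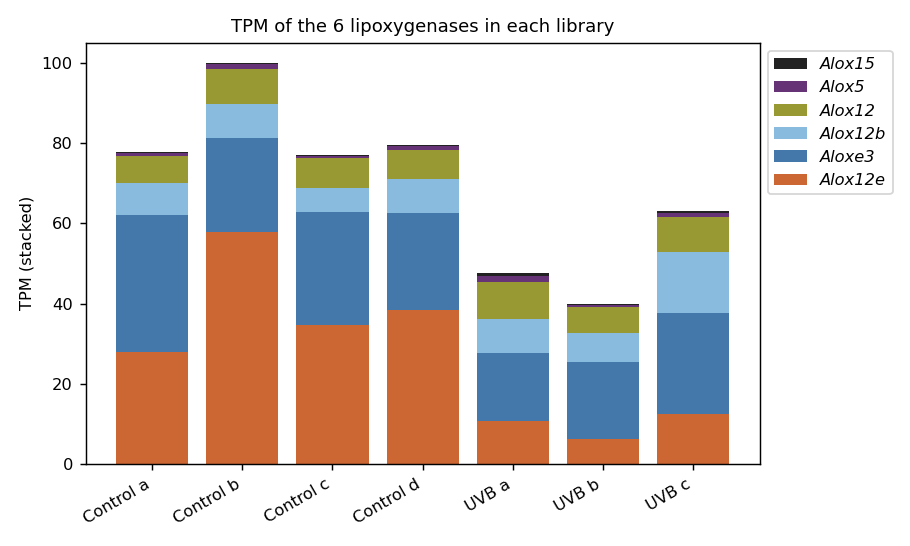
TPM of the 6 lipoxygenases stacked for each library (y axis, from 0; x axis, the 4 Control and 3 UVB libraries). The Alox12e segment at the base runs from 28.0 to 57.8 TPM in controls and from 6.14 to 12.6 TPM after UVB; the remaining segments together are 40.9 to 49.9 TPM and 33.8 to 50.5 TPM.

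Upstream of the lipoxygenases, 3 of 12 tested genes of fatty acid release passed, 1 higher and 2 lower, with a median log2 fold change of -0.027 (-0.22 without UVB a). The share over all tested genes was 13.0% in either direction. Pla2g4f, a cytosolic phospholipase A2 of epithelium, measured 12.6, 12.8, 10.6 and 13.1 CPM in Control a to d and 19.7, 18.9 and 39.9 CPM in UVB a to c, and rose by 1.10 (log2; SE 0.26, edgeR adjusted p = 0.0318). Without UVB c, its highest library, the log2 fold change was 0.66 and still passed. The call was lost without Control a (adjusted p = 0.065), b (0.0746), c (0.0829) or d (0.0706). The secreted phospholipase gene Pla2g2f, an enzyme of suprabasal epidermis, averaged 41.6 ± 3.81 CPM (SD, n = 4) in Control and 21.8 ± 6.78 CPM (SD, n = 3) in UVB. It fell by 0.93 on the log2 scale (SE 0.19, edgeR adjusted p = 0.0195; 0.0604 without UVB a). Faah, which hydrolyses fatty acid amides such as anandamide, fell from 37.9 ± 5.64 to 24.8 ± 1.99 CPM, by 0.61 on the log2 scale (SE 0.12, adjusted p = 0.0117), and was called in all 18 other fits. Pla2g4a, the cytosolic phospholipase A2 that supplies arachidonate to leukocytes, gave 0.016 (SE 0.18, adjusted p = 0.966).

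Downstream, 5 of 14 tested genes on the list of leukotriene conversion and breakdown passed, 3 higher and 2 lower, with a median log2 fold change of 0.077 (0.17 without UVB c, 0.039 without Control a). Among all tested genes, 13.0% passed in either direction, 6.30% higher and 6.74% lower. Mgst2, a microsomal glutathione transferase that can make leukotriene C4 outside leukocytes, measured 24.1, 30.1, 25.1 and 25.6 CPM in Control a to d and 35.4, 37.0 and 41.9 CPM in UVB a to c. It rose by 0.54 (log2; edgeR adjusted p = 0.00871, SE 0.094), with all UVB libraries above all controls. Ptgr1, a reductase that inactivates leukotriene B4 and prostaglandins, rose by 0.65 on the log2 scale (SE 0.12, adjusted p = 0.0124), averaging 81.3 ± 12.8 CPM (SD, n = 4) in Control and 127 ± 12.6 CPM (SD, n = 3) in UVB. Cotl1 was on this list as an actin-binding protein that also binds 5-lipoxygenase, not as an enzyme of leukotriene conversion. It is among the 3 called higher and rose by 0.71 (SE 0.12, adjusted p = 0.00871), from 33.0 ± 3.75 to 54.0 ± 8.46 CPM. Dpep1, a dipeptidase that turns leukotriene D4 into E4, fell from 19.6 ± 1.32 to 14.0 ± 0.809 CPM, by 0.49 on the log2 scale (SE 0.092, adjusted p = 0.0115). Each of these 4 was called in all 18 other fits, and uncharacterised loci overlap Ptgr1 and Dpep1 in GRCr8. Abcc1, an exporter of leukotriene C4, fell by 0.29 (SE 0.076, adjusted p = 0.034), but not without Control a (adjusted p = 0.0547), Control b (0.0614), Control c (0.0921), UVB a (0.0976) or UVB c (0.0806). Its counts were not whole in any library, so its reads were partly shared with other genes.

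Of 11 receptor genes listed, 7 were found among the genes read and 6 were tested. Of these 6, edgeR called 0, where it called 13.0% of all tested genes. DESeq2 and limma-voom also called 0, and 2 genes were at an unadjusted p under 0.05 in edgeR. These were Lgr6, reported as a receptor for the lipoxygenase product maresin 1, at 0.50 (SE 0.19, edgeR adjusted p = 0.119), and Gpr37, reported for a neuroprotectin, at -0.81 (SE 0.29, adjusted p = 0.101). The median log2 fold change of the 6 was 0.24, and 0.094 without UVB a or 0.12 without UVB c. Cmklr1, a receptor for chemerin and resolvin E1, gave 0.39 (adjusted p = 0.226) and was called higher in edgeR without Control c. The leukotriene receptor genes Ltb4r2 and Cysltr1 gave -0.085 (edgeR adjusted p = 0.836) and 0.23 (adjusted p = 0.53). Fpr2 was at or under 3 counts in every library.

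Among 8 tested genes of lipid peroxide handling, 1 passed, a share near the 13.0% of all tested genes. This was Gpx1, a glutathione peroxidase, at 0.44 (SE 0.11, edgeR adjusted p = 0.0294). It averaged 54.7 ± 6.50 CPM (SD, n = 4) in Control and 74.2 ± 8.79 CPM (SD, n = 3) in UVB. It did not pass with library size alone (adjusted p = 0.0547), without Control c (0.0766), Control d (0.067), UVB a (0.0838) or UVB c (0.0653). The list's median of -0.093 became 0.049 without UVB c. Gpx4, the peroxidase that reduces phospholipid hydroperoxides, had a 95% interval of -0.19 to 0.19.

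The cyclooxygenase side of arachidonate metabolism gave 3 of 7 tested genes called, 2 higher and 1 lower, with a median log2 fold change of 0.15 (0.46 without Control b, 0.063 without Control c) and 3 calls in every fit that left out 1 library. By comparison, 13.0% of all tested genes were called. Ptgs1, the constitutive cyclooxygenase, measured 5.51, 5.09, 6.21 and 5.51 CPM in Control a to d and 13.7, 14.3 and 16.9 CPM in UVB a to c. It rose by 1.42 on the log2 scale (edgeR adjusted p = 0.00095, SE 0.12). Ptgs2, the inducible cyclooxygenase, rose from 0.604 ± 0.0779 CPM (SD, n = 4) to 8.77, 2.98 and 2.93 CPM in UVB a to c, by 3.00 on the log2 scale (SE 0.44, adjusted p = 0.00594) and by 2.29 without UVB a. Ptgds, a prostaglandin D2 synthase, averaged 7.71 ± 1.44 CPM (SD, n = 4) in Control and 2.33 ± 0.362 CPM (SD, n = 3) in UVB, and fell by 1.72 on the log2 scale (SE 0.20, adjusted p = 0.00234). Whether these genes and the lipoxygenases differ in their response was not tested.

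**Figure D5:**
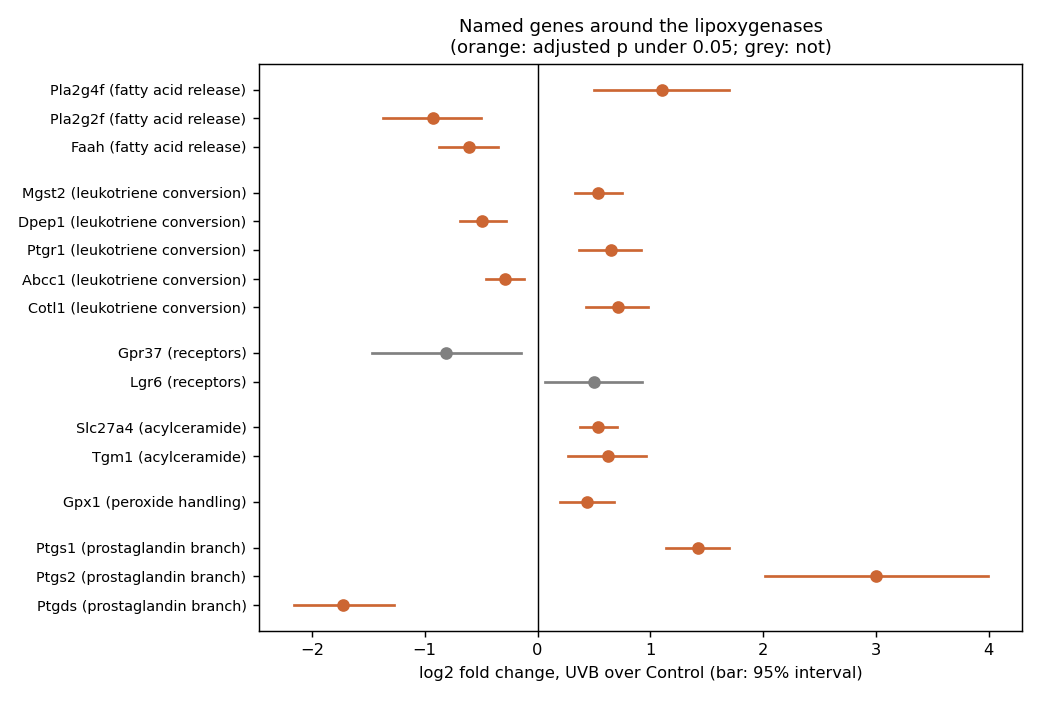
Log2 fold change of UVB over Control (x axis) with 95% intervals for the named genes of the 6 lists around the lipoxygenases (y axis, the list in brackets); orange marks an adjusted p under 0.05. The values run from -1.72 for Ptgds to 3.00 for Ptgs2, and the receptors Gpr37 and Lgr6 are the grey points.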

How the data were processed

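RNA sequencing of 4 Control and 3 UVB meibomian gland samples was used. The values deposited by the authors were expected counts, of which 12.5% were not whole, and TPM; per the submitters' processing notes, FastQC, Trimmomatic, DRAGEN, Picard and build rn7 were used, while the counting program, annotation and strand are not given in the sources used here. Commas inside gene names shift cells, so each row was read backwards from its last cell; 5 rows with a missing value were dropped from each, and 17245 genes were in both tables. Counts were rounded and tested in edgeR 4.0.16 (R 4.3.3; TMM, filterByExpr, robust quasi-likelihood test, two-sided, Benjamini-Hochberg over 13709 genes, threshold 0.05). The SE was taken as the size of the log2 fold change divided by the root of F, and 95% intervals use the fit's degrees of freedom.

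No pair of libraries within a group agreed within sampling noise (chi-square per degree of freedom at least 10.5). The labels do not say that libraries come from separate animals, so p-values measure the spread between these samples. The members and gene lists were chosen with earlier results of these data known. Of 193 listed symbols, 168 were found by symbol, 1 by another symbol in RefSeq's table, and 24 were not analysed here. Named genes were the 9 members, each gene past the threshold in a pathway list or else the 2 with the smallest p, the 2 most abundant genes of each marker list that held tested genes, and the 3 nearest in profile to a called member. Markers named as being at 3 counts or fewer, Pla2g4a, Gpx4, Fpr2, Alox15b, Pelp1, Cmklr1, Elovl1, Ugcg and the other markers named by their calls or fold changes were added after their values were seen. So were Ltb4r2 and Cysltr1. Lists were described by counts and medians without a set test. Ratios of TPM were tested by exact permutation over 35 splits. Other fits used DESeq2 1.42.0, voom weights in limma 3.58.1, other scalings and filters, unrounded counts, limma on log2(TPM + 1) or log2(TPM + 0.1), and leaving out each library. The fits were tested on simulated data. RefSeq's GRCr8 tables gave gene order, overlaps and promoter sequences; the deposited values are on rn7, so no other coordinates are given.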

Additional observations from a re-analysis of the deposited data

Results flagged for a closer look

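Within the 4 controls, 2 of 42 values examined had a library far from the other 3, where a rate of 1 in 20 gives 2.10 by chance; groups of 3 were not examined. For Alox12b, Control c was low at 7.80 CPM while Control a, b and d held 11.0 to 11.5 CPM; the gap was 0.858 of the whole range. Without Control c its log2 fold change was 0.27 in place of 0.39, and neither passed. Bbox1, one of the genes nearest to Alox12e in profile, was high in Control b at 5.97 CPM while Control a, c and d held 3.42 to 3.64 CPM; here the gap was 0.913. Alox12e and Mat1a were also highest in Control b, without a gap of that size. No cause was tested.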

How the results depend on the processing

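No paired analysis was possible because no replicate number stands in the column names. Alox12e was called lower, and no other member was called, in all 18 alternatives. Leaving out 1 library turned the sign of Alox5 (-0.052 without Control c, -0.24 without UVB a; range -0.24 to 0.37), Alox12b (-0.01 without UVB c; -0.01 to 0.59) and Alox5ap (-0.012 without UVB a; -0.012 to 0.38), none of them called; the cause was not tested. Ltc4s was 0.01 on the log2(TPM + 0.1) scale, and its ratio to Lta4h became 0.053 without Control b (range -0.31 to 0.053). Without 1 library the ratio tests cannot pass: 3 against 3 allows an exact permutation p of 0.10 and 4 against 2 allows 0.0667. The background of 1787 genes (863 higher, 924 lower) was 851 to 1898 (421 to 927 higher, 430 to 971 lower) without 1 library, and 1137 with 521 lower on the log2(TPM + 1) scale with every gene above 0; fewer libraries enter the former, and the cause of the latter was not tested. Alox15 and Alox5 rest on at most 44 counts in a library, and Ltc4s on at most 26, which limits what their intervals can exclude.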
